A study of Mus musculus with 2 samples.

Results

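The regions described here are introns that stayed in spliced RNA, measured with long reads of hippocampal RNA from young mice. An intron was taken up when it was removed in an annotated transcript with 10 or more reads over both libraries, and it counted as retained when it lay wholly within 1 exon of another transcript model of the same gene that was itself spliced. Such a model has at least 2 exons and is an annotated transcript, a new combination of annotated splice sites, a model with a new splice site or an incomplete splice match, which is a part of an annotated transcript. Retention is the reads of the models that keep the intron as a percentage of those reads plus the reads of the models that remove it, and these 2 kinds of read together are called informative reads. Of 67175 introns in 7516 genes, 12111 introns in 4061 genes were retained in at least 1 read (18.03%). The members were thus chosen by the same read counts that give their retention, so these levels are a description and carry no test.

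The tissue, labelled as the layer of the hippocampus, came from male B6CASTF1/J mice aged 14 days, the hybrid of C57BL/6J and CAST/EiJ. The 2 libraries are biological replicates 1 and 2 of 1 group with no treatment named, each from 3 pooled males and 2 µg of RNA, with ERCC and SIRV control RNAs added. The labels of the samples list different animals, while the note on the experiment gives those of replicate 1 for both. The p-values below set the difference between these libraries against counting error only, and that difference may be technical. Mouse models held 821324 reads in replicate 1 and 743862 in replicate 2. Markers of excitatory hippocampal neurons such as Slc17a7, the vesicular glutamate transporter, had reads in both libraries (1105 and 906 reads), as did all 6 such markers examined.

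Splicing removes introns through the spliceosome, which reads the 5′ splice site, the branch point and the 3′ splice site. An intron can be kept in an RNA that is otherwise finished, and such RNAs are held in the nucleus, are degraded, or are translated when the reading frame is uninterrupted. Genes for splicing factors are known for this, since many of them carry conserved introns or exons whose inclusion lowers the yield of protein.

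The sequences of 5 short introns, all among the 12 kept most often inside an internal exon, are shown, since their ends are what the splicing machinery reads. They come from GENCODE M21 transcripts that keep the intron (mm10, GRCm38), which is the C57BL/6J reference and not the CAST/EiJ allele, and are written 5′ to 3′ on the strand of the gene. Each short intron is whole, with 10 bases of exon on either side, and the capitals mark the first 6 and the last 3 bases of the intron. All lie between coding exons. The intron of Actb, kept in 3.50% of informative reads, all of them in incomplete splice matches, is added for contrast.
Clcn4 (chr7:7291727-7291819, minus strand, 93 bases): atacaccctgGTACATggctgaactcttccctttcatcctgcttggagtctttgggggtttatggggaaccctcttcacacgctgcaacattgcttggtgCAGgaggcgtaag
Tmem191c (chr16:17276758-17276836, plus strand, 79 bases): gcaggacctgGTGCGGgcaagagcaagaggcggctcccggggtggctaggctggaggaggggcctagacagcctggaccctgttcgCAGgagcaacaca
Ppdpf (chr2:181187737-181187808, plus strand, 72 bases): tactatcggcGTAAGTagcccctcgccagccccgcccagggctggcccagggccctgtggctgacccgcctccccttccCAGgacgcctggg
Dus3l (chr17:56768414-56768517, plus strand, 104 bases): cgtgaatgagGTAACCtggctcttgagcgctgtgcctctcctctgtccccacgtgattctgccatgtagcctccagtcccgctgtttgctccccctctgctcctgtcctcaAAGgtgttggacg
Rnf112 (chr11:61450903-61450977, minus strand, 75 bases): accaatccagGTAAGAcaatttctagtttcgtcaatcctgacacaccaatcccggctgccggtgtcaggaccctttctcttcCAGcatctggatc
Actb (chr5:142905477-142905563, minus strand, 87 bases): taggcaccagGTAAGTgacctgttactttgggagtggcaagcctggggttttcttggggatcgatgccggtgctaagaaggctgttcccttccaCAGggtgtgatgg

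For 5 longer introns, 3 of those 12 and the introns of Ddx5 and Gria2 described below, the 2 junctions are shown, each with 10 bases of exon and 20 bases of intron, with the same bases in capitals. Rsrp1, Srsf5, Srsf7 and Ddx5 encode proteins of RNA processing, and Gria2 encodes an AMPA-type glutamate receptor subunit.
Rsrp1 5′ splice site (chr4:134925433-134926734, plus strand): aaaggtggagGTAAGTgccttcaggaagct
Rsrp1 3′ splice site: aaaattctcttcctcttTAGcattcagaaa
Srsf5 5′ splice site (chr12:80947866-80949094, plus strand): cagctggcagGTTTGTtgaaatacagtttt
Srsf5 3′ splice site: cataattgtcttgtgttAAGgatctcaaag
Srsf7 5′ splice site (chr17:80204388-80205261, minus strand): gaagaagcagGTATTTaattaatgaaggaa
Srsf7 3′ splice site: ttttctaacttaaaaaaTAGgtcacgatct
Ddx5 5′ splice site (chr11:106782694-106783958, minus strand): agagggctagGTTAGTacaaactcgaattc
Ddx5 3′ splice site: cacactgcaacaccttaCAGatgtggaaga
Gria2 5′ splice site (chr3:80707259-80707698, minus strand): tgtatatgggGTAAGTttttaatgttacag
Gria2 3′ splice site: ttttctttcttcccttaCAGaaagctgata

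Every one of these introns begins with GT and ends with AG. The 5′ splice sites of Ppdpf, Rnf112, Actb, Rsrp1 and Gria2 begin with GTAAG, the letters that pair best with U1 small nuclear RNA, while those of Clcn4, Tmem191c, Dus3l, Srsf5, Srsf7 and Ddx5 do not.

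Most retained introns were kept rarely. The median retention over the 12111 introns was 2.30% (quartiles 0.960% and 5.43%), with a median of 2.17% in replicate 1 and 1.68% in replicate 2. A single read kept 5254 of them (43.4%), 2 to 9 reads kept 5565, and 10 or more reads kept 1292. The retained introns held reads that kept them in both libraries in 5098 cases. Retention reached 10% in 1607 introns and 50% in 108. The threshold of 10 reads cuts a continuous range: with 9 reads of the best annotated model, 253 of 2202 introns were kept, at a median of 8.33%, and with 10 reads 242 of 2125 were kept, at a median of 7.14%.

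Among well-covered introns, with 50 or more informative reads in each library, 5375 of 20958 were kept by at least 1 read (25.6%). Over all reads on these 20958 introns, 0.723% kept the intron in replicate 1 and 0.654% in replicate 2. Retention was under 5% in 4732 of the 5375, reached 10% in 315 and reached 50% in 45.

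The deposited tables give 1 start and 1 end per model and not per read, so for an intron held in the first or last exon of a model a read may begin or stop inside the intron or short of it. An intron inside an internal exon has a splice junction on both sides and is kept whole by every read of the model. Internal exons kept 7536 of the 12111 introns, 616 of them by 10 or more reads, and 4575 were kept only in first or last exons. Of the reads of well-covered introns, 0.303% in replicate 1 and 0.263% in replicate 2 kept the intron inside an internal exon. Of the 108 introns at 50% or more, 72 had no such read, and how many of their reads span the intron was not tested.

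Counting internal exons only, 137 well-covered introns in 93 genes were kept in 10% or more of informative reads. All 137 were kept in both libraries, with a median SD between the libraries of 3.35 percentage points (n = 2), and the Wilson 95% intervals of the libraries overlapped for 133. The other 4 were in Ddx5, Limk2, Noc2l and Srsf5, each higher in replicate 1. By the stricter rule used further below, Fisher's exact test with adjustment over reads of all models, 0.0637% of the introns tested differed, and Limk2 and Noc2l were not among them. The share without overlap among all well-covered introns is not given, so 4 of 137 cannot be set beside it. Of the 137, 93 were lower in replicate 2 and 44 higher. Over all models, 5121 of the 9418 introns tested were higher in replicate 1 and 4244 in replicate 2. Of the 137 introns, 136 lay between coding exons, and their median length was 226 bases. The 12 most retained, 1 per gene, are named below and were chosen after their values were seen.

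The highest internal-exon retention was in Clcn4, which encodes a chloride and proton exchanger of endosomal membranes. Intron 8 of 12 was kept inside an internal exon by 238 reads and removed by 17 in replicate 1, against 234 and 20 in replicate 2. That is 92.7% ± 0.854 (SD, n = 2; Wilson 95% interval of the pooled reads 90.1% to 94.7%). The counting intervals of the libraries overlapped. The intron was kept in 55 models, and 76.1% of the keeping reads over all models were incomplete splice matches, while an annotated coding transcript that keeps it had 9 reads. Its 93 bases hold no stop codon in the reading frame and are divisible by 3. In that coding transcript these bases are part of an exon. The value is thus also the share of reads that did not remove this stretch of exon, which 17 and 20 reads removed. Whether the stretch is a retained intron or part of a coding exon was not tested.

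Rsrp1, which encodes a protein rich in arginine and serine, ranked next. Intron 3 of 4 (1302 bases, chr4:134925433-134926734) was kept by 256 reads and removed by 31 in replicate 1, and kept by 212 and removed by 11 in replicate 2. All of the keeping reads held it in an internal exon, giving 89.2% and 95.1%. Of these reads, 95.3% belonged to 1 annotated model, Rsrp1-204, which GENCODE files as a retained-intron transcript. When reads with any other intron over the same stretch are also counted against retention, the value is 86.5%.

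Genes of splicing factors were next among those of RNA processing. Srsf7 encodes an SR protein, a class of splicing factors that bind exons and recruit the spliceosome. Its intron 3 of 7 (874 bases, chr17:80204388-80205261) was kept in an internal exon by 38 of 81 informative reads in replicate 1 and 20 of 62 in replicate 2, a retention of 46.9% and 32.3% whose Wilson intervals overlap. Srsf5, another SR protein gene, kept intron 5 of 7 (1229 bases, chr12:80947866-80949094) inside an internal exon in 70 reads against 67 that removed it in replicate 1, and in 28 against 93 in replicate 2. The Srsf5 intron is the one with the widest gap between the libraries among the 137, at 51.1% and 23.1%. In both genes most keeping reads fell in models with a new combination of annotated splice sites (69.0% for Srsf7 and 80.6% for Srsf5). The intron holds an in-frame stop codon in each.

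Ddx5 encodes an RNA helicase that works in splicing and in microRNA processing. Its intron 11 of 12 (1265 bases, chr11:106782694-106783958) was kept inside an internal exon by 144 reads in replicate 1 and 69 in replicate 2, while 471 and 460 reads removed it. The pooled share was 18.6% (Wilson 95% interval 16.5% to 20.98%). The annotated transcript Ddx5-208, filed as a target of nonsense-mediated decay, gave 126 and 55 of the keeping reads. The microRNA gene Mir3064 and another small RNA gene overlap this intron.

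**Figure D1:**
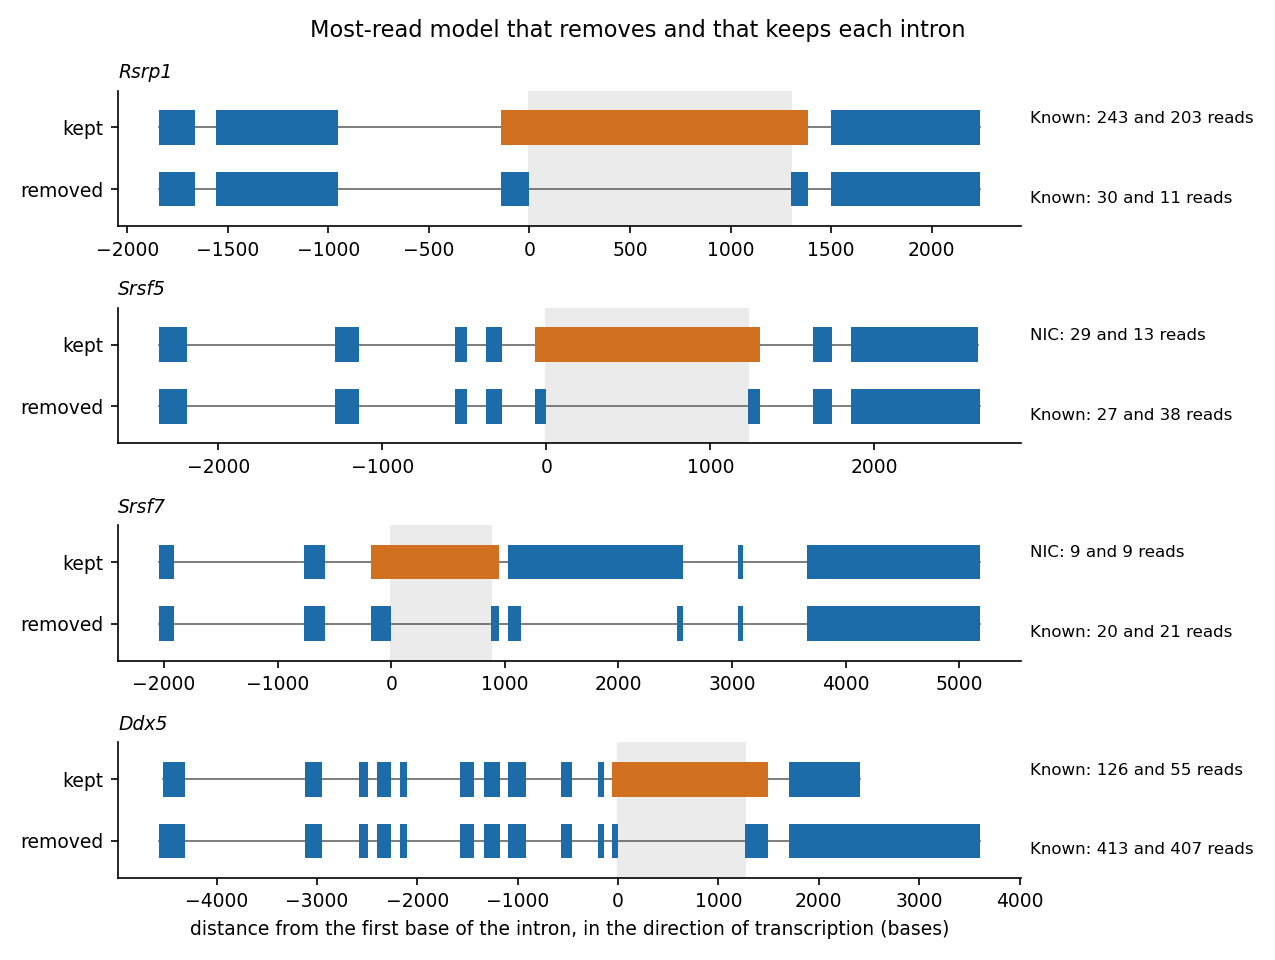
Exons (boxes) of the most-read model that removes and the most-read model that keeps the intron inside an internal exon, for Rsrp1, Srsf5, Srsf7 and Ddx5, drawn to scale as distance in bases from the first base of the intron (grey band); orange marks the exon that holds the intron, and the reads of replicates 1 and 2 stand at the right. In Rsrp1 the keeping model had 243 and 203 reads against 30 and 11 for the removing one, while in Ddx5 the removing model led with 413 and 407 against 126 and 55, and the Srsf7 model shown keeps a further intron downstream.

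Further genes of RNA processing had well-covered introns of this kind. Sf3b1, part of the U2 particle that binds the branch point, kept an intron of 1813 bases in 24 reads against 57 in replicate 1 and 16 against 50 in replicate 2 (27.2%). Zranb2, a zinc finger protein of the spliceosome, kept 1 of 1288 bases in 48 and 52 reads against 140 and 136 (26.6%). Chtop, which takes part in mRNA export, kept 1 of 1283 bases in 20 and 22 reads against 65 and 59 (25.3%). The gap between the libraries was within counting error for all 3. Ddx39b, a helicase of splicing and mRNA export, kept intron 6 of 10 (2177 bases) at 15.0% in replicate 1 and 15.1% in replicate 2, from 27 of 180 and 19 of 126 reads. Hnrnpl, a splicing repressor and activator, kept an intron of 111 bases in 23 and 20 internal-exon reads against 80 and 92 (20.0%). Sf3b1, Zranb2, Chtop and Hnrnpl were named after their values were seen.

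The remaining introns of the 12 lay in other genes. Entr1, which encodes a regulator of endosomal traffic, kept intron 4 of 7 (380 bases) in 73 reads against 52 in replicate 1 and 83 against 52 in replicate 2, or 60.0%. It overlaps an exon of the antisense gene Gm13563, and whether strand was used in the counting is not given in the sources used here. Tmem191c kept its 79-base intron 2 in 39 and 29 internal-exon reads against 25 and 25, or 57.6%, and the order of the libraries was the reverse of that in Entr1. Colgalt1, a galactosyltransferase of collagen, kept intron 9 (806 bases) at 50.7% and 43.9%. The spread between libraries lay within the counting intervals for all 3.

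Ppdpf, known from pancreatic progenitors, kept its intron 2 (72 bases) at 39.6% in replicate 1 and 46.3% in replicate 2. Dus3l, which encodes a dihydrouridine synthase acting on RNA, kept intron 7 (104 bases) at 41.5% and 42.9%. Cpne7, a calcium-dependent membrane-binding copine, kept intron 7 (618 bases) at 40.6% and 37.7%. None of these gaps exceeded the counting intervals. Ntsr2, a neurotensin receptor of astrocytes, kept intron 2 (1675 bases) in 28 reads of each library against 46 and 48 that removed it, or 37.3%. Counting reads with another intron over the same stretch lowers the Ntsr2 value over all models from 42.7% to 13.2%. Rnf112, a brain-enriched RING finger protein, kept intron 8 (75 bases) at 39.7% and 33.2%.

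**Figure D2:**
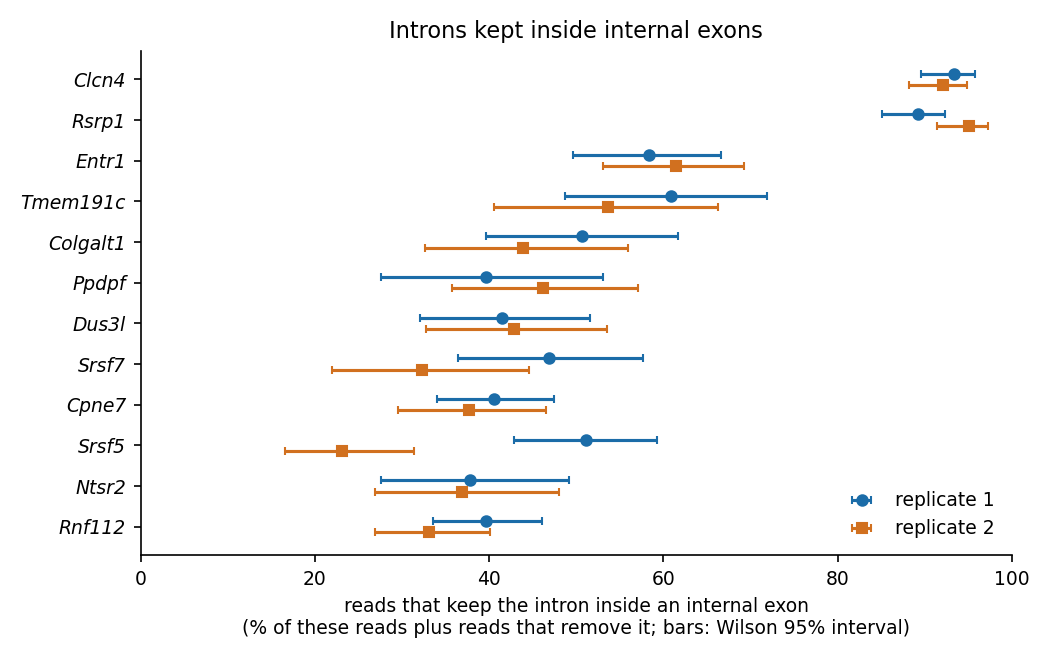
Share of informative reads that kept each of 12 introns inside an internal exon (x axis, percent) by gene, with replicate 1 as circles, replicate 2 as squares and bars for the Wilson 95% interval of counting error. Clcn4 and Rsrp1 lie near 90% in both libraries, the others between 23.1% and 61.5%, and the bars of the 2 libraries are apart only for Srsf5.

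Retained introns with an open reading frame formed a small group. Of the 137 introns, 98 lay between coding exons and had a sequence; 83 of these held an in-frame stop codon, 8 held none but shift the frame, and 7 held none and are divisible by 3. The 7 are in Clcn4, Dus3l (a second intron, of 177 bases), Rnf112, Ssbp4, Map7d1, Hnrnpl and Haghl, with 75 to 177 bases each. Annotated coding transcripts hold those of Clcn4 and Rnf112 within an exon. Whether these stretches are retained introns or parts of coding exons was not tested. Ssbp4, a binding protein of single-stranded DNA, kept its intron of 84 bases in 86 and 83 internal-exon reads against 161 and 163, so that the libraries gave 34.8% and 33.7%. Map7d1, a microtubule-associated protein, kept 1 of 96 bases in 92 and 73 reads against 181 and 144, which is 33.7% and 33.6%. Both introns left the frame of the coding sequence open, and translation was not measured.

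Among genes of synapses, 4 of 41 retained introns in the synaptic vesicle list and 4 of 39 in the postsynaptic and receptor list reached 10% over all models, beside 1607 of 12111 over all retained introns. Gria2 kept intron 10 of 15 (440 bases, chr3:80707259-80707698) in 43 of 329 informative reads in replicate 1 and 36 of 304 in replicate 2, a retention of 12.5% (Wilson 95% interval 10.1% to 15.3%). Internal exons held 16 and 13 of these reads, for a retention of 4.97% by internal exons alone, and 58.2% of the keeping reads belonged to the annotated transcript Gria2-204, in which the intron lies at the end. Grik5, a kainate receptor subunit, kept intron 16 of 19 (277 bases) in 12 internal-exon reads of each library against 96 and 91, or 11.4%. Camkv, a kinase-like calmodulin-binding protein of synaptic vesicles, kept an intron of 214 bases in 76 and 48 such reads against 502 and 423, or 11.8%, and was named after its values were seen. Dbn1, the actin-binding protein drebrin of dendritic spines, kept intron 6 (222 bases) at 6.49% and 7.27% over all models and at 3.45% in internal exons. Syn1, the vesicle protein synapsin I, kept its last intron at 9.03% and 14.1%, with all keeping reads in incomplete splice matches and none in an internal exon; with reads of any intron over the stretch counted, its pooled 11.4% falls to 4.53%.

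Lists of genes chosen for this tissue differed in how often introns were kept, with 0.691% of reads kept over all well-covered introns and 0.284% in internal exons for comparison. No test was made of the lists. The medians run only over introns kept by at least 1 read, so they and the counts of retained introns depend on read depth. Depth differed between lists: well-covered introns held 13179 informative reads over 62 introns for SR and related proteins, and 203065 over 108 for astrocyte genes. In 24 genes of SR and related proteins, 47 of 133 introns were retained, at a median of 3.90%; 10.1% of the reads on their well-covered introns kept the intron, 5.87% in internal exons. Rsrp1 alone gave 468 of the 739 internal-exon reads of that list. In the core spliceosome list 90 of 461 introns were retained (median 2.58%, 0.858% of reads, 0.515% in internal exons), and in the list of hnRNPs and neuronal splicing regulators 86 of 365 (median 2.00%, 0.731% and 0.305%). The list of splicing kinases and L cyclins had 27 of 105 introns retained at a median of 1.96%; an intron of Ccnl2 was kept inside internal exons in 6 and 7 reads against 23 and 21, and 1 of Clk2 in 6 and 5 reads against 31 and 23. With reads of any intron over the stretch counted, the Ccnl2 value over all models falls from 26.7% to 5.52%.

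In lists of synaptic, glial and cytoskeletal genes the share of reads that kept an intron was below that over all well-covered introns, while the share of introns retained in at least 1 read was not lower in all of them. Synaptic vesicle genes had 41 of 202 introns retained, at a median of 0.504%, and 0.182% of reads kept the intron. Postsynaptic and receptor genes had 39 of 289 at a median of 1.22% and 0.294% of reads. Myelin genes had 5 of 74, and 0.0698% of reads. Astrocyte genes had 38 of 122 and 0.113%. Cytoskeletal genes had 58 of 213 and 0.248%.

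Ribosomal protein genes differed between the 2 ways of counting. In that list 197 of 469 introns were retained and 1.56% of reads kept the intron, but internal exons accounted for 0.184%. Rpl28, for example, kept its intron 1 in the 5′ UTR in 41 reads of each library against 41 and 28 that removed it, with none in an internal exon and none with 10 bases of exon on both sides of the intron. Translation factors and chaperones had 122 of 272 introns retained and 0.495% of reads (0.114% in internal exons). Hspa5, the chaperone BiP of the endoplasmic reticulum, kept intron 1 (82 bases, 5′ UTR) in 174 reads against 220 in replicate 1 and 141 against 220 in replicate 2, or 41.7%, nearly all in the annotated transcript Hspa5-202. Of the genes known from earlier work for a retained or detained intron, 43 of 146 introns were retained, at a median of 0.714%; 0.324% of reads kept the intron, 0.0741% in internal exons, both below the values over all well-covered introns. In that list Mat2a, the S-adenosylmethionine synthetase, kept its last intron (585 bases) at 35.1% and 31.4%, in last exons only.

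Besides Clcn4 and Rsrp1, introns in the first or last exons of models had high retention over all models. Glo1, which detoxifies methylglyoxal, kept a 3′ UTR intron of 1040 bases in 356 reads against 8 in replicate 1 and 350 against 5 in replicate 2, or 98.2%. Mtch1, a mitochondrial outer-membrane protein, had the most keeping reads of any retained intron, 716 and 654, against 58 and 57 that removed its 3′ UTR intron of 422 bases. Gpm6b, a myelin-family membrane protein, kept a 3′ UTR intron in 600 and 505 reads against 68 and 49, a retention of 90.4% that falls to 40.1% when reads with any intron over the stretch are counted. In the 5′ UTR, Spop, Ubl3, Arpc2 and Nell2 kept intron 1 at 91.7%, 90.6%, 86.2% and 84.9%. All 7 of these were kept only in first or last exons, where the ends of single reads are not given. Except in Nell2, most keeping reads came from annotated coding transcripts. One such transcript gave 94.9% for Glo1, 93.5% for Spop, 99.6% for Ubl3 and 96.9% for Arpc2. The most-read one gave 54.3% for Mtch1 and 43.4% for Gpm6b, and the next gave 32.0% and 42.2%. In these transcripts the stretch is part of an exon. Whether it is a retained intron or an ordinary part of an exon was not tested. Nell2, which encodes a secreted neural protein with EGF repeats, falls to 3.74% with incomplete splice matches left out.

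High values were also found at the ends of genes of RNA processing. Srsf2, an SR protein gene, kept an intron of 502 bases near its end in 197 reads against 27 in replicate 1 and 146 against 15 in replicate 2, or 89.1%. The annotated coding transcript gave 81.3% of the keeping reads, none lay in an internal exon, and the antisense gene Mettl23 overlaps the intron. Hnrnpa2b1, which encodes an RNA-binding protein of splicing and RNA transport, kept a 3′ UTR intron of 1355 bases in 41 reads against 25 and in 34 against 16, or 64.7%. Internal exons held 20 and 19 of these reads, a retention of 48.75% by internal exons alone. With reads of any intron over that stretch counted, the Hnrnpa2b1 value falls to 10.9%.

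Further introns kept only in first or last exons had intermediate retention. Ensa, a phosphatase inhibitor of the cell cycle, kept its last intron (2724 bases) in 123 reads against 142 in replicate 1 and 105 against 109 in replicate 2, or 47.6%. Zbtb18, a transcriptional repressor of cortical development, kept its last intron (112 bases, with no stop codon in frame) in 117 against 137 and 125 against 135 reads, or 47.1%. Hras, the small GTPase, kept its last, 3′ UTR intron at 48.9% and 43.6%. Pja1, a ubiquitin ligase, kept a 540-base intron with no stop codon in 199 reads against 62 and 192 against 56, or 76.8%. In each the libraries lay within counting error of one another. Annotated coding transcripts gave most of the keeping reads, 99.1% for Ensa-201, 94.2% for Zbtb18-202, 81.4% for Hras-202 and 93.6% for Pja1-205.

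Among retained introns kept by 10 or more reads, those at 50% or more were placed differently from the rest: 31.5% of the 108 lay in the 5′ UTR and 16.7% in the 3′ UTR, against 8.78% and 3.29% of the 1184 below 50%. Introns between coding exons made up 47.2% and 86.1%. As a description over reads, first introns under 300 bases were kept in 10.3% of informative reads (185 introns), internal ones in 1.03% (4156 introns) and last ones in 1.28% (582 introns), among well-covered introns. The median retention of these introns was 2.46% for first ones and 0% for internal and last ones. These shares count reads that keep the intron in first or last exons too. Over all lengths the shares were 1.25% for first introns (1989), 0.504% for internal ones (16332) and 1.20% for last ones (2280), so that first and last introns were close.

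Retained introns were short. Their median length was 373 bases (quartiles 141 and 950), against 1632 (601 and 3899) for the introns that no read kept, and they ran from 56 to 7558 bases. Of well-covered introns under 80 bases, 72.7% were kept by at least 1 read, and 2.93% of reads kept them in replicate 1 and 2.66% in replicate 2. Of those of at least 1000 and under 2000 bases, 22.3% were kept, by 0.609% and 0.5501% of reads. Of 2937 introns of 5000 bases or more, 10 were kept (0.340%). The lengths of single reads are not given, and their part in this order was not tested.

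**Figure D3:**
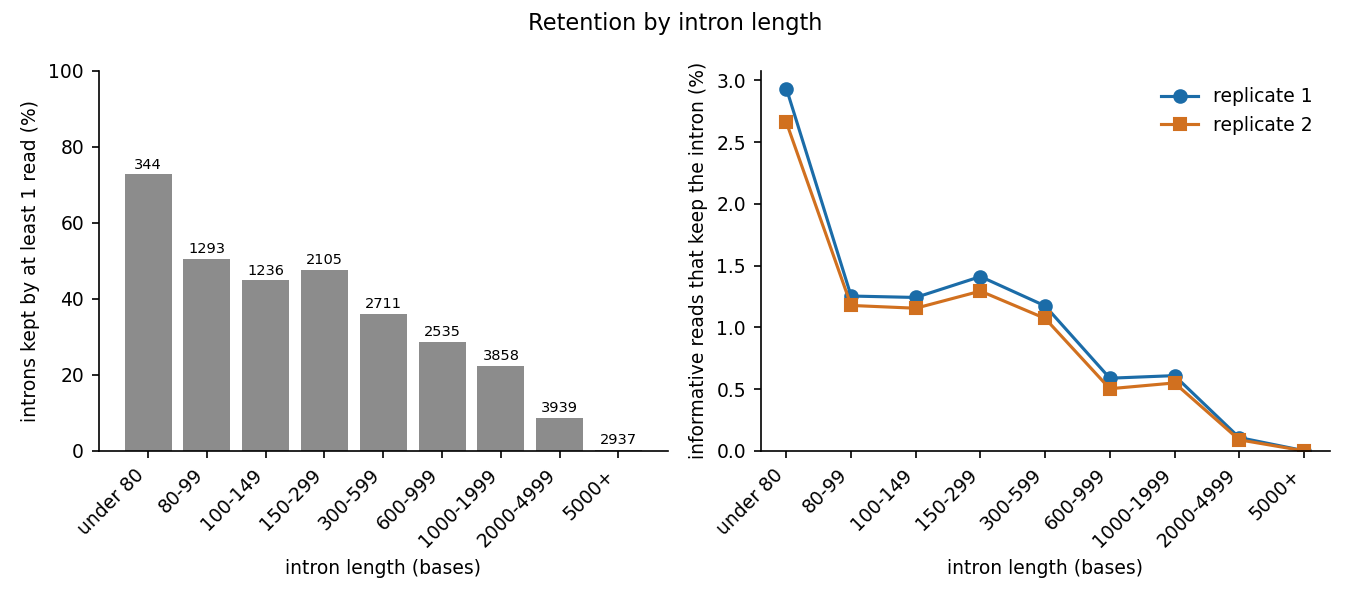
Left, share of well-covered introns kept by at least 1 read (bars, percent) by intron length in bases, with the number of introns above each bar; right, share of informative reads that kept the intron in each library. The share of introns kept drops from 72.7% under 80 bases to 0.340% at 5000 bases or more, and replicate 1 lies above replicate 2 in all 9 length classes.

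Sequences could be read for 3128 retained introns and for 1695 that no read kept, namely those that lie in an exon of another GENCODE transcript, which favours introns already annotated as kept. GT and AG ends were found in 98.8% of the retained introns and 98.6% of the others. The median GC content was 53.2% against 48.9%. The 5′ splice site began with GTAAG in 19.0% against 25.5%, and with GTGAG in 32.2% against 29.8%, both read on the strand of the gene. The median lengths of these 2 sets were 213 and 363 bases, so length differs along with the letters. Of the retained introns between coding exons with a sequence, 86.7% held an in-frame stop codon (2462 of 2839), against 91.1% of those never kept. Lengths divisible by 3 made up 32.4% of retained introns between coding exons and 33.4% of the others.

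AT and AC ends, the letters by which introns of the minor spliceosome were first told apart, were found in 6 retained introns, in Arl16, Ciao2b, E2f6, Rnf123, Sms and Tcea2. Tcea2, a transcription elongation factor, kept its intron of 351 bases in internal exons in 15 reads against 9 in replicate 1 and 6 against 6 in replicate 2, or 58.3% (Wilson 95% interval 42.2% to 72.9%). Arl16, a small GTPase-like protein, kept 1 of 122 bases in 26 against 18 and 21 against 15 reads, or 58.8%, with none in an internal exon. The other 4 lay between 0.926% and 10.9%.

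Small RNA genes on either strand overlapped 164 retained introns, whose median retention was 2.92%. Gas5, a non-coding host gene of small nucleolar RNAs, kept the intron that Snord78 overlaps in 10 reads of each library against 21 and 17, or 34.5%. Nop56 encodes a core protein of box C/D small nucleolar particles. Its intron of 343 bases, which a small RNA gene overlaps, was kept in 13 and 14 reads against 61 and 47, or 20.0%. Both values rest on few reads, with Wilson 95% intervals of 23.6% to 47.3% and 14.1% to 27.5%.

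Each read counted as keeping an intron removed at least 1 other, since the rule takes only models with at least 2 exons. Of the 27850 such reads in replicate 1 and 22474 in replicate 2, 78.4% kept 1 separate intron, 13.9% kept 2 and 7.72% kept 3 or more. The median keeping read removed 7 introns, and 83.8% removed at least 3. Annotated transcripts gave 33.7% and 35.2% of the keeping reads in the libraries, new combinations of annotated splice sites 31.8% and 30.2%, incomplete splice matches 30.2% and 30.3%, and models with a new splice site 4.30% and 4.25%. Measured against all spliced reads of their class, new combinations kept an intron in 17.6% and 15.1% of reads and annotated transcripts in 1.83% and 1.75%. The definition of the classes shapes this contrast. An annotated transcript can keep an intron only where GENCODE already has it kept, and other retention falls in the remaining classes. Within the annotated transcripts, protein-coding ones gave 73.0% and 76.2% of the keeping reads and those filed as retained-intron transcripts 21.6% and 19.6%.

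Neighbouring introns were kept together. In 284 pairs of neighbours in 177 genes, each intron kept by 10 or more reads, the downstream intron was kept in a median of 76.3% of the reads that kept the upstream one (quartiles 51.8% and 91.7%) and in 1.64% of the reads that removed it. The medians were 79.3% and 1.71% in replicate 1, and 78.6% and 0.945% in replicate 2. The share was higher beside a kept neighbour in 276 of 284 pairs, and 5 pairs were never kept together. With internal exons only, 169 pairs had 10 or more reads that kept the upstream intron, with medians of 73.3% and 0.989%, and 158 had the higher share beside a kept neighbour. Pairs of 1 gene share reads, and no test was made.

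Named pairs show the range. In Matk, a kinase related to Csk, 2 introns of 79 and 92 bases were kept together by 202 reads, 23 reads kept only the upstream one, 5 only the downstream one and 467 removed both. In Mars, a methionyl-tRNA synthetase, 26 reads kept both of 2 introns, 84 removed both and none kept only 1. In Entr1, 135 reads kept introns 3 and 4 together, 4 kept only the upstream one and 26 only the downstream one, while 100 removed both. In Ddx5, 96 reads kept both the intron described above and the last intron, 213 kept only the upstream one and 1 only the last; none of the 96 held the last intron in an internal exon. In Actb, 67 reads kept intron 2, 16 kept intron 3 and none kept both.

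**Figure D4:**
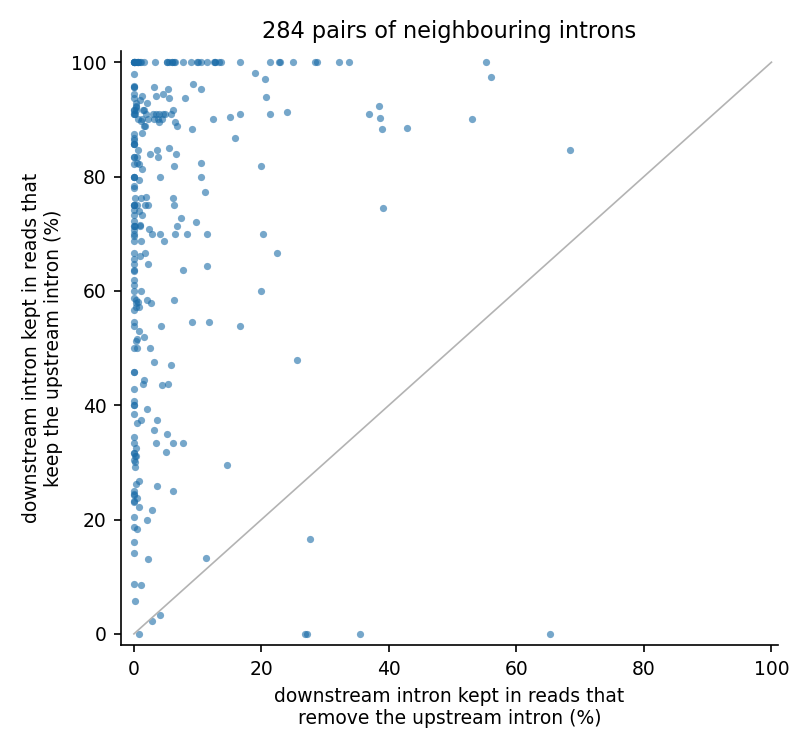
Each point is 1 of 284 pairs of neighbouring introns: the share of reads that kept the downstream intron among reads that removed the upstream one (x axis, percent) and among reads that kept it (y axis, percent), both libraries together. Points above the grey line of equality are pairs with the higher share beside a kept neighbour (276 of 284), and the medians are 1.64% and 76.3%.

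Some genes had many retained introns at low levels. Acadvl, a mitochondrial enzyme of fatty acid oxidation, had 20 of its 20 introns retained, 2 of them by 10 or more reads. Cpne6, a copine of hippocampal neurons, had 17 of 18, with 9 kept by 10 or more reads. In Cpne6 the intron of 71 bases was kept in 106 reads against 848 in replicate 1 and 46 against 695 in replicate 2, or 8.97%.

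The share of all mouse reads in models that keep a retained intron averaged 3.21% ± 0.261 (SD, n = 2). It was 3.39% in replicate 1, with a Wilson 95% interval from 3.35% up to 3.43%. In replicate 2 it was 3.02%, with bounds of 2.98% and 3.06%. The difference exceeded counting error by Fisher's exact test, two-sided (p = 3.07e-39), which knows only counting error. Replicate 1 lay higher in internal exons alone too, at 1.42% against 1.18%. Oligodendrocyte markers differed as well, with summed levels of 5375 and 2730 CPM over 3 markers, all 3 lower in replicate 2 and none at 0, and choroid plexus markers summed to 196 and 90.1 CPM over 2 markers. Astrocyte markers summed to 8894 and 9012 CPM. The part of these markers in the difference in retention was not tested. In whole tissue, fewer cells of a type and less RNA per cell cannot be told apart.

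Retention was compared between the libraries for the 9418 introns with 20 or more informative reads in each. Fisher's exact test, two-sided and with Benjamini-Hochberg adjustment, called 6 introns at an adjusted p under 0.05 (0.0637%), 3 higher in replicate 2 (0.0319%) and 3 lower (0.0319%). At an unadjusted p under 0.05 there were 179. Of the 9418 introns, 5121 were higher in replicate 1 and 4244 in replicate 2, and 5185 were kept in only 1 of the libraries. Across introns Pearson's r between the libraries was 0.893 and Spearman's rho 0.259, and over the 1180 kept by 10 or more reads they were 0.921 and 0.860. The points share libraries and many share reads, so no p is given.

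The Srsf5 and Ddx5 introns were called with reads in many models. For Srsf5, 75 of 142 informative reads kept the intron in replicate 1 and 28 of 121 in replicate 2, which is 29.7 percentage points lower (adjusted p = 0.0022 by Fisher's exact test). For Ddx5, 200 of 671 and 109 of 569 reads kept it, 10.6 points lower in replicate 2 (adjusted p = 0.028 by Fisher's exact test). Both calls were also made with internal exons only, where no other intron was called, and with incomplete splice matches left out. The last intron of Ddx5 was kept at 8.20% and 7.13% and was not called.

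The other 4 calls rested on incomplete splice matches in first or last exons, with no read in an internal exon, and none of the 4 was made once those matches were left out. Prrt1, a synaptic partner of AMPA receptors, kept intron 1 in 35 of 64 reads in replicate 1, 34 of them in 1 model, and in 0 of 32 in replicate 2. Scd2, a fatty acid desaturase, kept intron 1 in 0 of 322 and 22 of 326 reads, all 22 in 1 model. Cdk5rap3 kept intron 1 in 1 of 91 informative reads and in 26 reads against 76 that removed it, 22 of the 26 in 1 model, and an exon of the antisense gene D030028A08Rik overlaps it. The adjusted p-values of Prrt1, Scd2 and Cdk5rap3 were 9.6e-05, 7.8e-04 and 7.8e-04 by Fisher's exact test.

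**Figure D5:**
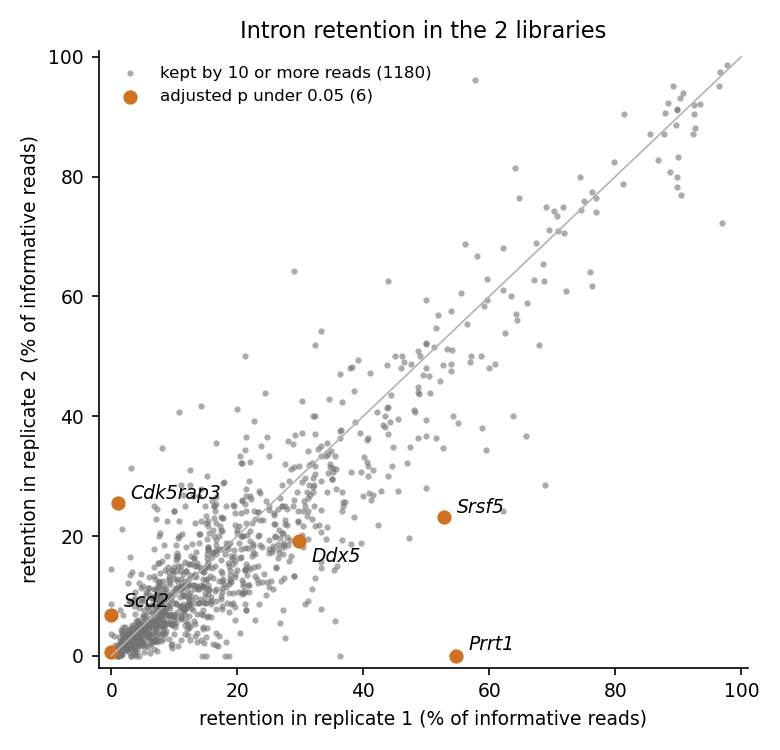
Retention of each of 1180 introns kept by 10 or more reads and with 20 or more informative reads in each library, in replicate 1 (x axis, percent of informative reads) and replicate 2 (y axis), with the 6 introns called different in orange, 5 of them named, and the line of equality in grey. Most points follow the line (Pearson's r 0.921), and Prrt1 and Srsf5 are the called introns farthest from it.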

How the data were processed

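The authors deposited, for each library, a table of raw read counts per transcript model, per the file headers, with no normalization, and an annotation of each model's exons on mm10 against GENCODE M21. For the aligner and the transcript caller, no name or version is given in the sources used here. Attributes of the annotation carry names that TALON writes. Exons of all 23989 annotated models with reads equalled those of GENCODE M21.

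Introns were the gaps between exons. Retention was computed from the counts in Python 3.11.15 with scipy 1.17.1; shares of reads have Wilson 95% intervals, which cover counting error only. The 2 libraries were set against each other by Fisher's exact test over introns with 20 or more informative reads in each, with Benjamini-Hochberg adjustment at 0.05, and the procedure was tested on simulated data. With 1 group of 2 libraries there is no contrast between conditions.

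The members, gene lists and tests were chosen with earlier results of these data known. Introns named were those with the highest retention below and above 50%, the most keeping reads, the called ones and up to 3 per gene list. The 12 introns ranked by internal exons, those named for an open frame, AT and AC ends, a small RNA gene, a neighbour or many introns per gene, and those so marked in the text, were chosen after their values were seen. Alternatives varied which models keep an intron, the read minimums, the exon margin, the test and the denominator. Some items are not reported here.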

Additional observations from a re-analysis of the deposited data

Results flagged for a closer look

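Unspliced and genomic-class models also covered retained introns. The main comparison of retention left them out, and only an alternative described below counted them. They held 4914 reads over 1168 of the introns, 2559 in replicate 1 and 2355 in replicate 2. That is 0.312% of mouse reads in replicate 1, with Wilson 95% bounds of 0.300% and 0.324%. In replicate 2 it is 0.317%, with bounds of 0.304% and 0.330%. Both lie above the 3 reads that a count of 0 allows. With 1 group there is no control group to set beside them.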

How the results depend on the processing

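The number of introns called different between the libraries was 6, and it became 95 with genomic-class and single-exon models counted, 1 when only annotated transcripts could keep an intron and 2 with internal exons only; the cause of the rise to 95 was not tested. It was 5 to 7 under the other alternatives, but with incomplete splice matches left out only 2 of the 6 calls were shared, and 4 introns of Cpne6 were called. The number of retained introns was 12111 and became 1174 with annotated transcripts only and 7536 with internal exons only. The number at 10% or more, 1607, became 327 and 743 under these settings and 946 with 20 reads required of the annotated model. The median retention, 2.30%, became 3.36% with annotated transcripts only and 1.79% with 20 reads. Leaving out each library in turn gave medians of 1.68% to 2.17%, 1771 to 1898 introns at 10% or more, and 3.02% to 3.39% of mouse reads in keeping models. That last share was higher in replicate 1 under all 7 alternatives on models. Counting any intron over the stretch as removal, chosen after seeing the data, gave a median of 2.13%. Of 71 named introns, 49 moved by more than the SD between libraries with internal exons only and 28 with incomplete matches left out. No paired analysis was possible because the 2 libraries form 1 group. Depth limits the rest: 5254 introns rest on 1 read, and 1 of 20 informative reads is 5%.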
